A study of Arabidopsis thaliana with 2 samples.

Results

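The 7 genes described here encode components of the spliceosome, or proteins with domains typical of it, that are not members of the SR (serine/arginine-rich) family: U1-70K (AT3G50670), AT1G60900, ATO (AT5G06160), AT1G28060, AT5G38600, AT5G55100 and AT1G60200. They were taken by gene identifier from 5 deposited lists of splicing events that differed between cotyledons, the seed leaves, of the Arabidopsis thaliana lefko mutant and wild type, and they account for 15 of 343 listed events and 7 of 281 listed genes. The mutant and the wild type were both Col-0 plants, from seedlings grown vertically on MS medium with sucrose in long days, and the labels give 1 sample of each. The mutant is lefko1 in the column headers and lefko2 in a sample title, the source label says seeds where the protocol says cotyledons, and neither the mutated locus nor the number of plants is stated. Each event carries 3 sets of read counts per genotype, and nothing says whether these came from separate plants, libraries or runs. Their spread may therefore be technical. The tables hold no expression levels, so the tissue could not be checked by marker genes.

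Splicing removes introns in steps. The U1 snRNP (small nuclear ribonucleoprotein) first recognises the 5′ splice site, U2AF and the U2 snRNP mark the 3′ end and the branch point, and the U4/U6.U5 tri-snRNP then joins to form the catalytic complex. An mRNA that keeps an intron, or uses another splice site inside it, often gains an early stop codon, and genes for splicing factors are known in plants and animals for such alternative forms of their own mRNA.

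In each of the 7 genes all listed events fell on a single intron, so that the 15 events rest on 7 splice junctions. AT1G60900, ATO, AT1G28060 and AT5G38600 had only 1 listed event each. Over all lists, 343 events of 281 genes rest on 302 distinct skipping junctions. For mutually exclusive exons, which have no such junction, the span between the outer exons was counted instead. The splice sites of the 7 introns are shown because the reads in every event are counted for or against them. Each line gives 10 exon bases and 20 intron bases around a 5′ splice site, 5′ to 3′ on the gene's own strand, from the RefSeq genome TAIR10.1, with the GT that starts the intron in capitals.
U1-70K, chr3:18828329-18828358, minus strand: aattaaacggGTaggttattctgagcattc
AT1G60900, chr1:22425287-22425316, plus strand: gctgcagcagGTatttgcttcatcatctac
ATO, chr5:1866105-1866134, minus strand: tgagaaacttGTacgctttctctcttcttc
AT1G28060, chr1:9779816-9779845, plus strand: gctcactaagGTatcttcgatatctacaac
AT5G38600, chr5:15457692-15457721, plus strand: gatgttagttGTatcctttcttttgctcta
AT5G55100, chr5:22364055-22364084, minus strand: tcaaaacctgGTaagttattgctttagatt
AT1G60200, chr1:22204807-22204836, minus strand: cctcctcatgGTgggttcttctatctctta
In 3 genes the longer exon of a listed event ends at a 5′ splice site further downstream in the same intron, which no annotated transcript uses. Those sites, with their own GT in capitals, are the following.
U1-70K, chr3:18827533-18827562, minus strand: caacataaagGTtgcctgccttatagagct
AT1G60900, chr1:22425394-22425423, plus strand: tgtgactttgGTaagctgcaattttattgt
ATO, chr5:1865968-1865997, minus strand: taaataacagGTtcgtgttgagtgttgcct

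The share used throughout is the percentage of an event's reads that keep the alternative stretch (inclusion reads), the rest being reads across the junction that removes it (skipping reads). Mutually exclusive exon events, found in none of the 7 genes but included in the values over all lists, are an exception. There the reads of 1 exon are set against those of the other, so higher or lower depends on which exon counts as inclusion. The share was higher in the mutant in 14 of the 15 events, which come from 6 genes, and lower in 1, that of AT1G28060. Over all 343 listed events 77.8% were higher and 22.2% lower, and over the 214 retention events alone 83.2% and 16.8%. The median difference was 14.1 percentage points in the 7 genes and 17.7 points over all listed events. Because the genes were picked from lists of changed events (100% of the 343 have an adjusted p under 0.05), these differences are a description and carry no test of their own. The largest adjusted p among the 15 events was 0.00572 in the authors' deposited table, against 0.0491 for the last event listed. Events beyond that limit were not analysed here. The 3 mutant sets lay apart from the 3 wild-type sets in 15 of 15 events, where 91.8% of all listed events did so.

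**Figure D1:**
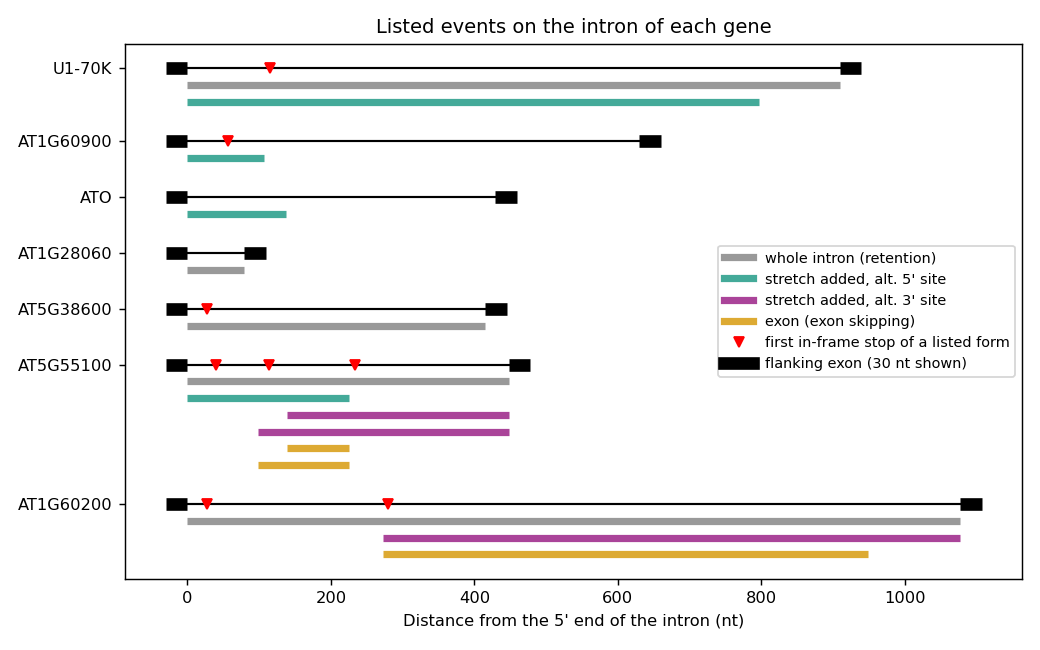
The intron of each gene is drawn as a line from its 5′ end (distance in nt), with bars for the stretch that each of the 15 listed events keeps and red triangles at the first in-frame stop codon of a listed form. Stop codons lie within the intron in 5 genes, at 27 nt in AT5G38600 and AT1G60200 and at 115 nt in U1-70K.

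**Figure D2:**
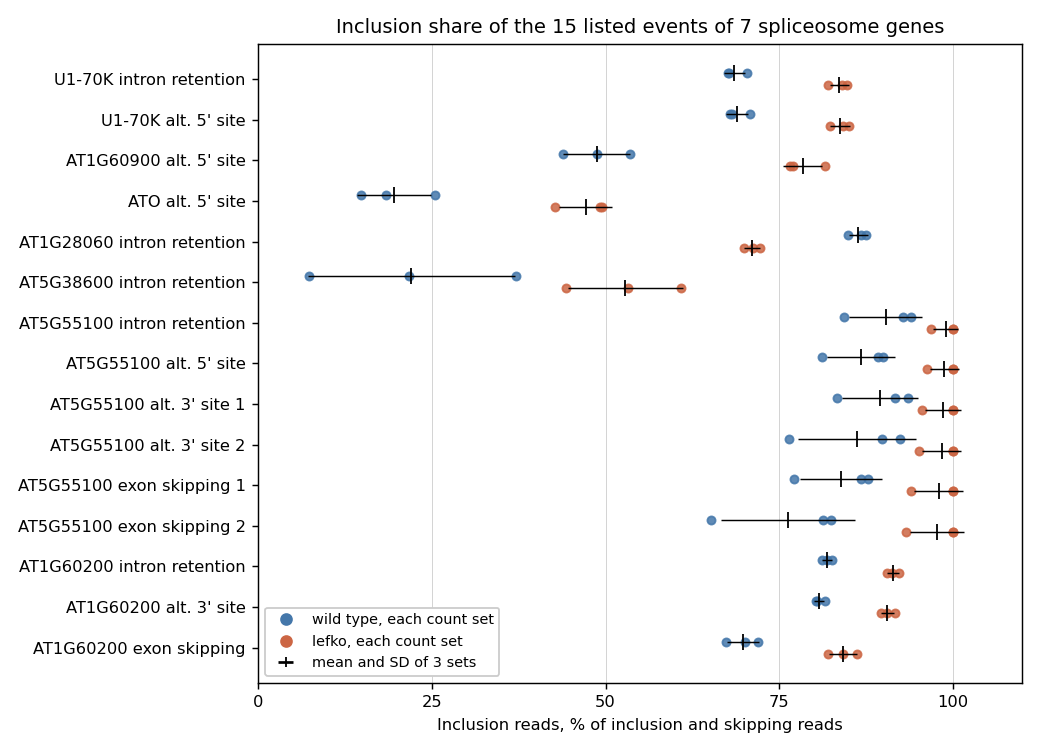
Points give the share of inclusion reads (percent, x axis) in each of 3 wild-type and 3 lefko count sets for the 15 events, with black marks for mean and SD. The lefko points lie to the right of the wild-type points in each event but that of AT1G28060.

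U1-70K is the protein of the U1 snRNP that binds U1 RNA and contacts SR proteins, and it had the most reads. Its intron 6 of 8 (chromosome 3, 18827440 to 18828348, 909 nt, within coding sequence) is removed in the mRNA for the full protein. Retention was 67.7%, 67.6% and 70.3% in the wild-type sets and 84.7%, 84.1% and 82.1% in the mutant sets. The lowest mutant set stood 11.8 points above the highest wild-type set. The difference was 15.1 points (SE 1.18, 3 sets per genotype), and the authors' deposited table lists an adjusted p of 2.88e-08. Skipping reads hardly differed, with 1795 over the wild-type sets and 1874 over the mutant sets, whereas retention reads went from 3915 to 9597. The alternative 5′ splice site event of U1-70K adds 796 of the 909 nt. It counts almost the same reads, 3995 and 9730, against the same skipping reads. The longer exon and the retained intron were therefore largely read from the same sequence and are not separate results.

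AT1G60900 encodes a large subunit of U2AF, which binds the pyrimidine-rich tract before the 3′ splice site. The event lies in intron 4 of 12 (chromosome 1, 22425297 to 22425926, 630 nt), and the longer exon adds its first 107 nt. In wild type the longer exon had 68, 53 and 59 reads per set, against 59, 68 and 62 for the annotated junction. The mutant sets held 172, 161 and 127 against 39, 48 and 39. In wild type the 2 forms were thus about equal in reads, and in the mutant the longer one prevailed in every set. The share went from 48.7% ± 4.87 to 78.4% ± 2.75 (SD, 3 sets), and the adjusted p was 1.64e-09 in the authors' deposited table. Here the skipping reads were fewer in the mutant, 126 against 189. No retention event was listed for AT1G60900 or ATO, but without the counting rule, reads from a retained intron cannot be told apart from those of the longer exon.

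ATO (ATROPOS) is the counterpart of the SF3a subunit of the U2 snRNP known in human as SF3a60. The event lies in its intron 1 of 10 (chromosome 5, 1865696 to 1866124, 429 nt), of which the longer exon adds 137 nt. The longer exon had 47, 29 and 49 reads in the wild-type sets and 172, 194 and 162 in the mutant sets. The annotated junction had 208, 167 and 144 reads in wild type and 178, 198 and 217 in the mutant. In raw reads the longer form was the minor one in each wild-type set (14.8% to 25.4%) and close to equal in each mutant set (42.7% to 49.5%). Inclusion reads were 4.22 times the wild-type number (95% counting interval 3.47 to 5.18) and skipping reads 1.14 times (1.01 to 1.29). The adjusted p of the event was 1.35e-09 in the authors' deposited table, the smallest among the 15.

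AT1G28060 encodes pre-mRNA-splicing factor 3, a protein of the U4/U6 snRNP, and RefSeq also lists it as RDM16, after its role in RNA-directed DNA methylation. It differed from the other genes in what its event is. The 79 nt removed (chromosome 1, 9779826 to 9779904) lie inside a coding exon in all 3 annotated transcripts, and the junction is in none of them. The stretch begins with GT and ends with AG. It was kept in 84.9%, 86.8% and 87.5% of reads in the wild-type sets and in 69.9%, 72.3% and 71.2% in the mutant sets. Every mutant set was lower, and the share fell by 15.3 points (SE 1.03), the adjusted p being 0.00572 in the authors' deposited table. Reads across the unannotated junction numbered 63 over the wild-type sets and 122 over the mutant sets, while reads that kept the stretch went from 399 to 302.

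AT5G38600 encodes a protein with a proline-rich spliceosome-associated (PSP) domain and a CCHC zinc knuckle. Its intron 2 of 8 (chromosome 5, 15457702 to 15458116, 415 nt) was retained in 21.7%, 37.0% and 7.27% of reads in the wild-type sets. The mutant sets gave 60.9%, 53.3% and 44.3%. The wild-type sets were widely spread, on only 39 retention reads in all, yet none reached the lowest mutant set. The difference was 30.8 points (SE 9.84) and ranged from 23.5 to 38.3 when any set was left out. The adjusted p was 0.00377 in the authors' deposited table.

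The intron of AT5G38600 begins with GTATCCTT, the 5′ motif of U12-type introns, a rare class that a separate minor spliceosome removes. The motif was looked up after the sequence had been seen. Of 131086 annotated introns of protein-coding genes, 281 (0.214%) begin with GTATCCTT or ATATCCTT on the sense strand, and none of the other 6 introns does. Among the 302 distinct junctions of all listed events, counted as above with the spans of mutually exclusive exons, 5 (1.66%) begin so. The remaining ones are in AT3G59310, POD1, CKB3 and RABG3A. Each of these 5 was an intron retention event that was higher in the mutant, by 16.1 to 30.8 points, where 83.2% of all listed retention events were higher. The match describes letters only, and which spliceosome removes the intron was not measured.

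AT5G55100 encodes a protein with a SWAP/surp domain, an RNA-processing domain first described in a fly splicing regulator. Its intron 2 (chromosome 5, 22363627 to 22364074, 448 nt) gave 6 events in 4 classes, and all count the same skipping reads. Those were 9, 16 and 7 in the wild-type sets and 5, 0 and 0 in the mutant sets. In raw reads the spliced form was thus a small part in wild type, and 2 of the mutant sets had none. With inclusion reads scaled by the length of the intron, for reads of an assumed 100 bases, it made up 35.5% in wild type and 5.03% in the mutant. Counts of 0 among 149 and 205 reads allow a spliced share of up to 2.01% and 1.46%. Retention was 92.8%, 84.3% and 93.9% in wild type and 96.9%, 100% and 100% in the mutant. The difference of 8.61 points (SE 3.21) became 5.60 without wild-type set 2, the set with the most skipping reads. Without that set the alternative 3′ splice site events, otherwise higher by 9.01 and 12.2 points, gave 5.93 and 7.33.

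The other events of AT5G55100 divide its intron. The 5′ site event keeps the first 225 nt, the 3′ site events keep the last 309 or 350 nt, and the exon events keep an inner stretch of 86 or 127 nt. The exon of 127 nt changed most, from 76.3% ± 9.64 to 97.8% ± 3.90, and the 5′ site event went from 86.8% ± 4.89 to 98.8% ± 2.14. Inclusion reads over the wild-type sets ranged from 102 for the exon of 127 nt to 310 for the whole intron, and over the mutant sets from 167 to 508. All these sites are annotated in some of the 12 transcripts of the gene.

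AT1G60200 encodes a protein with a PWI domain and an RNA recognition motif, both of which bind nucleic acids. Its intron 1 of 6 (chromosome 1, 22203750 to 22204826, 1077 nt) was retained in 81.2%, 82.6% and 81.9% of reads in wild type and in 92.3%, 91.2% and 90.6% in the mutant. The sets of a genotype lay within 2 points of each other, and the difference was 9.46 points (SE 0.648), for which the authors' deposited table gives an adjusted p of 1.65e-06. An alternative 3′ splice site that adds 804 nt went from 80.8% ± 0.725 to 90.6% ± 0.995. An exon of 675 nt inside the intron went from 69.8% ± 2.34 to 84.2% ± 2.07. Skipping reads, 394 and 460, are common to the 3 events, and retention reads went from 1771 to 4850.

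The change in share can come from more reads that keep the stretch, from fewer that remove it, or from both, and the 7 genes differed in this. Taking the event with the most reads of each gene, inclusion reads were more than 1.5 times as many in the mutant in 6 genes. Skipping reads stayed within 1.5 times of wild type in 4 of these, U1-70K (1.04 times), AT5G38600 (1.11), ATO (1.14) and AT1G60200 (1.17). In AT1G60900 skipping reads were 0.667 times as many (95% counting interval 0.528 to 0.840) and in AT5G55100 0.156 times (0.0475 to 0.404). The AT1G60900 ratio lies exactly on the limit of 1.5 times, and its interval spans that limit. AT1G28060 went the other way on both counts, with 1.94 times the skipping reads and 0.757 times the inclusion reads. How many of all listed events pass the limit of 1.5 times was not counted. These numbers of genes are therefore not shown to be particular to the 7. Over 234 listed events with at least 20 summed wild-type reads of each kind, the medians were 2.03 for inclusion and 0.860 for skipping reads. That filter used wild-type reads alone. It leaves out events with few wild-type reads of either kind, also where the mutant had more, so both medians depend on it. The medians, too, lie above 1.5 times for inclusion and within 1.5 times of wild type for skipping reads. These are ratios of raw reads, since total reads per library were not among the values used here. Reads over all listed events, which are only part of a library, summed to 166819 to 178604 per mutant set and 168946 to 187225 per wild-type set. Such sums do not measure depth, since junctions shared by several events enter more than once and a single gene can dominate. The mutually exclusive exon event of AT5G38430 had 67193 inclusion and 55171 skipping reads over the wild-type sets, against 14518 and 4186 over the mutant sets.

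**Figure D3:**
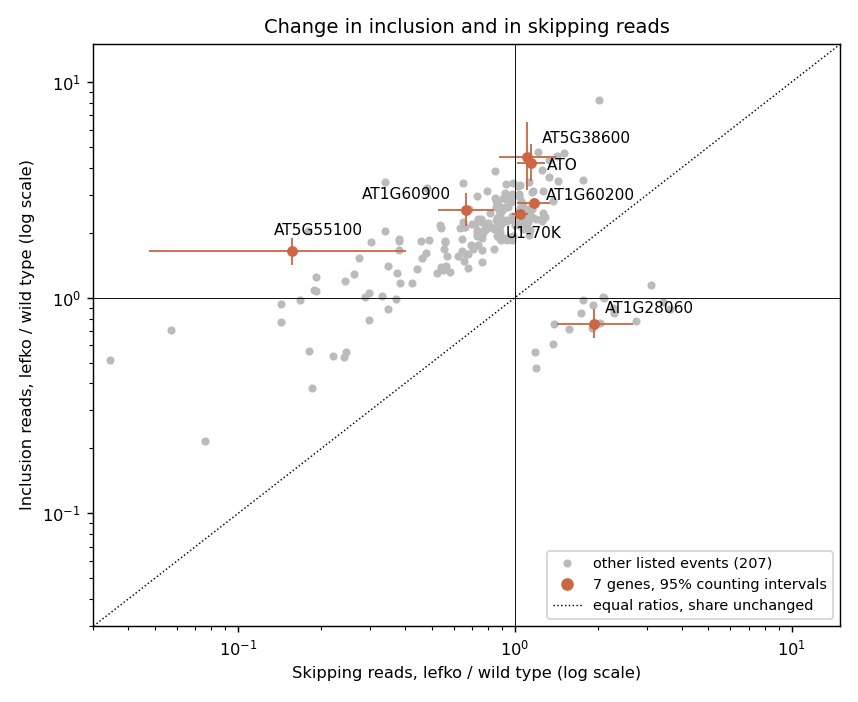
Each point is an event, with the ratio of lefko to wild-type skipping reads on x and of inclusion reads on y (log scales), for the event with most reads of each of the 7 genes with 95% counting intervals and for 207 other listed events, 12 with no lefko reads of a kind not being drawn. The other events drawn had at least 20 summed wild-type reads of each kind. U1-70K, ATO, AT5G38600 and AT1G60200 lie near a skipping ratio of 1, AT5G55100 far to its left, and AT1G28060 below the dotted line of unchanged share.

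All 7 introns lie within coding sequence, and the reading frame was followed from the annotated start codon through each form. This reads the reference sequence and measures no protein. In 6 genes the spliced form holds the full annotated frame, which has 427 codons in U1-70K, 589 in AT1G60900, 504 in ATO, 532 in AT5G38600, 844 in AT5G55100 and 899 in AT1G60200. In AT1G28060 it is the form that keeps the 79 nt that holds the full frame of 786 codons, and removal shifts the frame and leaves 203. The form with the full frame therefore had a lower share of reads in the mutant in 7 of 7 genes, although the inclusion share fell in AT1G28060 and rose in the others. The lists as a whole ran towards inclusion (77.8% of events), and the frame was not followed in other listed genes, so this direction is not shown to be particular to the 7. The full-frame share went from 31.0% ± 1.60 to 16.2% ± 1.44 in U1-70K, from 51.3% ± 4.87 to 21.6% ± 2.75 in AT1G60900 and from 80.5% ± 5.38 to 52.9% ± 3.80 in ATO (SD, 3 sets). In AT1G28060 it went from 86.4% ± 1.34 to 71.1% ± 1.17. These levels are shares of raw reads and depend on the length of the stretch. With inclusion reads scaled by length, for an assumed read length of 100 bases, the full-frame form was the major one in U1-70K, with a scaled share of 80.1% in wild type against 63.3% in the mutant. On that scale it went from 72.2% to 52.6% in AT1G60200. It was lower in the mutant in all 7 genes, a direction that scaling could not change because it keeps the order of the count sets.

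The 15 alternative forms of the listed events all reach a stop codon early, upstream of at least 1 later exon junction. They are not 15 separate results, because forms of the same gene can share a stop. Both U1-70K forms end at the same stop, 115 nt into the intron. Some AT5G55100 forms share a stop after 157 codons and others after 149, and some AT1G60200 forms share a stop after 140. The frame was not followed in other listed genes, so early stops are not shown to be particular to these genes. In the 15 forms the stop was 683 to 3081 nt before the last junction of the mRNA. Stop codons in such positions can expose mRNAs to nonsense-mediated decay, but decay of these forms was not measured. Retention in U1-70K leaves 204 codons, and the same short frame is annotated in a RefSeq transcript that keeps the intron. The longer exon leaves 226 codons in AT1G60900 and 139 in ATO. Retention leaves 114 codons in AT5G38600, 157 in AT5G55100 and 147 in AT1G60200. For these 3 genes RefSeq transcripts that keep the intron have a coding sequence that begins at a later start codon, of 429 codons in AT5G38600, 658 or 659 in AT5G55100 and 750 in AT1G60200.

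The introns were long for Arabidopsis in 6 of the 7 genes. Their median was 448 nt, against 157 nt for the introns of the 214 listed retention events and 101 nt for annotated introns of protein-coding genes. The 157 nt leave out the other listed event classes, and AT1G60900 and ATO had no listed retention event. The 7 introns are therefore not shown to be longer than those of all listed events. The intron was the longest of its transcript in U1-70K, AT1G60900, AT5G55100 and AT1G60200, and it was the next to longest in ATO. How often this holds in other listed genes was not counted. In U1-70K the 909 nt compare with 305 nt for the longest of the other introns. In AT1G60200 the 1077 nt compare with 142 nt. AT1G28060 is the exception, with 79 nt. A longer stretch can collect more reads, and the counting rule is not stated, so shares are best compared within an event.

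**Figure D4:**
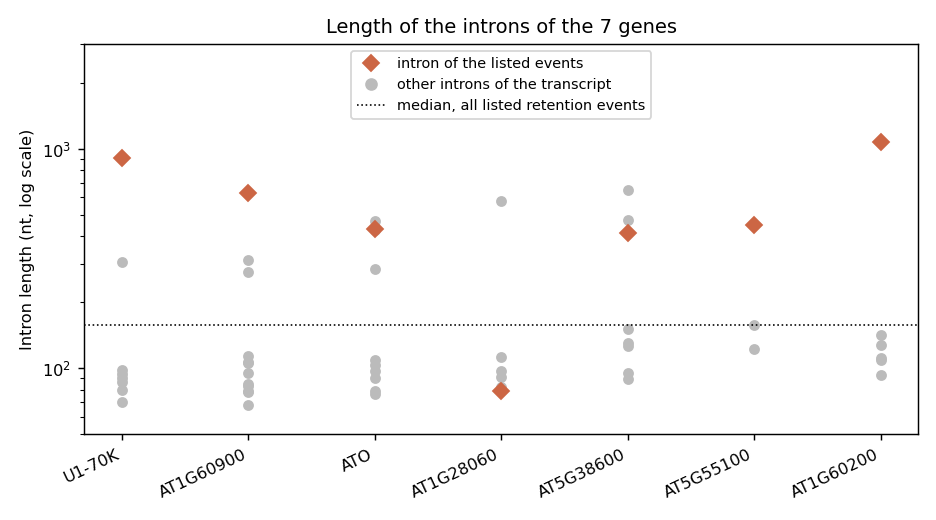
Lengths (nt, log scale) of the intron with listed events (diamonds) and of the other introns of the same transcript (grey) for the 7 genes, with the median of 157 nt for all listed retention events dotted. Diamonds lie above the dotted line in each gene but AT1G28060.

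The splice sites of the 7 introns did not score alike. Each was scored by its match to the average of annotated sites and ranked among them. The 5′ sites shown above ranked at percentile 94.6 in AT5G55100, 89.1 in AT1G60900, 77.2 in AT1G28060 and 28.1 in U1-70K. They ranked low in AT1G60200 (14.4), ATO (7.27) and AT5G38600 (1.80), the last being the site with the U12-type motif. Few annotated sites carry that motif, so the low rank of AT5G38600 shows unlikeness to the average site and not a weak site. The downstream 5′ site that ends the longer exon ranked above the upstream 5′ site in ATO (66.1). It ranked below the upstream site in AT1G60900 (49.4), AT5G55100 (19.98) and U1-70K (4.70). The 3′ sites of the skipping junctions ranked from 14.4 in AT1G28060 to 99.8 in AT1G60200.

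Of 85 genes of the snRNPs, U2AF, the Prp19 complex and the helicases, 5 were listed, with inclusion higher in 4 and lower in 1. These are U1-70K, AT1G60900, ATO and AT1G28060, which were chosen from the lists, plus PRP39 (AT1G04080), which encodes a U1 snRNP factor. Of all 22245 annotated nuclear protein-coding genes with an intron, 274 (1.23%) were listed. None of 13 Sm core genes, 9 genes of the U6 LSm ring, 10 of the Prp19 complex or 11 helicases and later-acting factors was listed. At that overall share a group of such a size would seldom hold a listed gene, so nothing is read from these counts. The tables also do not separate an unchanged gene from one with too few reads. The PRP39 intron spans 462 nt (chromosome 1, 1054201 to 1054662), and its 2 alternative 3′ splice site events went from 50.3% ± 3.18 to 66.3% ± 3.64 and from 62.3% ± 1.67 to 75.5% ± 3.08. AT5G38600, AT5G55100 and AT1G60200 are named for their domains in the annotation and are not among the 85.

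The events outside these genes with the most similar shares were found from the mean absolute difference over the 6 count sets, among 230 events whose sets all had at least 20 reads. The nearest to AT1G60200 was retention in JAZ10, a repressor of jasmonate signalling, at 0.656 points. SNRK2.10, a stress-activated kinase gene, was nearest to AT1G28060 (1.15 points), GDPD2 to U1-70K (1.33) and the kinase gene AT4G32250 to AT5G55100 (1.39). The matches were looser for ATO (AT5G66550, 3.85), AT1G60900 (the clock gene PRR7, 3.86) and AT5G38600 (AT3G11880, 6.84). Event classes were not matched. The events of U1-70K, AT1G60900 and ATO were alternative 5′ splice sites. Their nearest events were an alternative 3′ splice site, an exon skipping and an intron retention event, in that order. A near match is therefore likeness in numbers only.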

How the data were processed

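The authors deposited 5 tables of splicing events. Their columns hold reads counted for inclusion and for skipping in wild type and mutant, per the file headers, with 3 whole counts in each cell. A p-value and its adjusted value (FDR) stand beside every event, per the file headers. The submitters' processing notes name HISAT2 2.0.4 and TAIR10. Software for the event calls is not given in the sources used here.

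Members and gene lists were chosen with earlier results of these data known, so no test was run on them. Shares are means over 3 count sets with SD. Intervals are exact (Clopper-Pearson, 95%), a count of 0 allows 3 reads, and both cover counting error only. Starts count from 0 in the tables, so 1 was added. Sequences, introns and frames come from RefSeq TAIR10.1, whose chromosome versions are those of the tables. Splice sites were scored as summed log2 odds over 3 exon and 6 intron bases (5′) and 15 intron bases and 1 exon base (3′). Named were all events of the 7 genes, listed genes of the 85, and the nearest event to each gene. Motif matches were named after they were seen. The calculation of shares was checked on simulated counts of known share, which is a check of arithmetic and no test of these data. Python 3.11.15, NumPy 2.4.6, SciPy 1.17.1 and matplotlib 3.10.9 were used.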

Additional observations from a re-analysis of the deposited data

How the results depend on the processing

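No single event changed direction under any alternative. The sets of the 2 genotypes lay apart in 15 of 15 events. Leaving out a set, summing reads or rescaling inclusion reads could therefore not reverse a direction, and only the sizes below carry information. The median difference of the 15 events, 14.1 points, was 14.3 with summed reads and 10.7 to 15.2 when any count set was left out. It was 19.7 points with inclusion reads divided by 2. It was 19.9 points with inclusion reads scaled by length for reads of 100 bases, an alternative chosen after seeing the data that assumes the read length. These 2 settings each moved 12 of the 15 events by more than the spread between sets, and the level of a share depends on them most: retention in U1-70K became 17.8% and 33.7% with scaling by length, and in AT5G38600 the difference became 12.6 points. In AT5G55100 the retention difference became 15.3 and 30.5 points and in AT1G60200 14.7 and 19.6 points. The difference in log2 odds, with 0.5 added, had a median of 1.93. With 1 event per skipping junction 6 were higher and 1 lower, and among events that changed by 10 points or more 10 and 1. An FDR of at most 0.01 or at least 20 reads in each set left all 15 events and the 5 listed genes of the 85. The intron was the longest in 4 genes among all annotated introns of the gene too. No paired analysis was possible because the labels give 1 sample per genotype. The counts of AT5G38600 and the skipping reads of AT5G55100 are low, which limits their precision.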
